A study of Mus musculus with 6 samples.

Results

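Chromatin contacts spanning 1 to 2 Mb were followed in P19, an embryonal carcinoma line of the mouse that takes a neuronal path under all-trans retinoic acid (ATRA). They were the autosomal pairs of 5 kb bins in the deposited interaction list whose bin centres lay at least 1 Mb and less than 2 Mb apart, 108347 of 3443020 autosomal and 3654010 nuclear pairs. Hi-C joins the cut ends of DNA that was in contact when the nuclei were fixed, and sequencing counts the joined ends. It was made from undifferentiated cells at 0 h without ATRA (T0) and from cells given 1e-06 M ATRA for 6 h (T6) or 48 h (T48), with 2 replicates each. All 6 libraries came from the same line grown as a monolayer on gelatine, and no untreated cells at 6 or 48 h were analysed here, so ATRA and time in culture cannot be told apart. Whether the replicates of a time point were grown separately is not stated in the labels, so the spread behind each p-value may be technical.

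Contacts of this length are longer than most loops that cohesin extrudes between CTCF sites and than most topologically associating domains, the megabase blocks within which contacts are frequent. They can join neighbouring domains, or mark the compartments in which active and inactive chromatin each keep to themselves. In embryonic cells, some of the longest point contacts join regions bound by Polycomb proteins, which silence developmental genes. Positions are those of the mouse build mm9, and no gene was placed on them here.

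A pair entered the list of a time point only when it was called in both replicates, so a pair is either listed or not listed at a time point, and numbers of listed pairs have no replicate error. A pair that is not listed may still have been in contact. It has no count in either replicate, so summed counts partly follow the number of listed pairs in both replicates together. The count of a pair is the number of read pairs that joined its bins. Contacts of 1 to 2 Mb were rare and thinly covered. The median count was 3 in every library, which was also the lowest listed, and both replicates had a count of 3 in 41.8% of the pairs at T0, 41.9% at T6 and 36.6% at T48. Summed over the whole list, the counts of replicates 1 and 2 were 50154643 and 29644373 at T0, 40561360 and 23003295 at T6, with 43500876 and 29554481 at T48. These sums cover listed pairs and are not the sequencing depth.

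The number of 1 to 2 Mb contacts was 34751 at T0, 28681 at T6 and 51929 at T48. They made up 1.92% of the autosomal list at T0, 1.87% at T6 and 3.01% at T48. T48 thus listed 1.49 times as many as T0. The summed listed count of T48 replicate 1 was below that of T0 replicate 1, and the replicate 2 sums were nearly equal. Sequencing depth is not known here, and its part in this ratio was not tested. T6 listed 0.825 times as many as T0, close to the ratio of the whole autosomal lists, since scaling to their lengths gave 0.977. The ratio of T48 over T0 grew with distance within the class. It was 1.43 from 1 to 1.25 Mb, 1.54 from 1.25 to 1.5 Mb, 1.58 from 1.5 to 1.75 Mb and 1.63 from 1.75 to 2 Mb. Around the class, it was 1.19 from 500 kb to 1 Mb and 1.504 from 2 to 10 Mb, against 0.818 from 20 to 100 kb.

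In counts, the 1 to 2 Mb contacts held 0.318% and 0.531% of the autosomal listed count in T0 replicates 1 and 2, 0.329% and 0.581% in the T6 replicates, and 0.534% and 0.753% in the T48 replicates. Replicate 2 had the higher share at each time point, and the lower T48 value lay just above the higher T0 value. The mean share was 0.644% ± 0.155 at T48 and 0.425% ± 0.150 at T0 (SD, n = 2 each). The difference of 0.219 percentage points had a two-sided exact permutation p of 0.333, the smallest that 2 libraries against 2 allow. The T6 mean of 0.455% ± 0.178 (SD, n = 2) lay within the spread of T0, with an exact permutation p of 0.667. Among pairs listed at all 3 time points the share was 0.0660% and 0.132% in the T48 libraries against 0.0689% and 0.161% in the T0 libraries, a difference of means of -0.0161 percentage points.

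The gain at T48 was made of pairs with low counts. Pairs were classed by the lower of their 2 replicate counts. At a lower count of 3, there were 27037 pairs at T0, 22105 at T6 and 37996 at T48. Relative to T0, the T48 list held 1.41 times as many in this class, 1.81 times as many at a count of 4 and 2.03 times as many at counts of 5 to 9. From a count of 10 upwards the order turned, with 454 pairs at T0, 423 at T6 and 369 at T48. At 20 or more there were 90 at T48 against 147 at T0. So the middle of the count range grew most, and the strongest contacts of this length were fewer at T48. The net fall at counts of 10 or more lay in a single segment of chromosome 4. On chromosome 4 from 145 to 147 Mb, 128 pairs reached 10 in both replicates at T48 against 220 at T0, and elsewhere 241 did at T48 against 234 at T0. Elsewhere there were falls and rises. Chromosome 13 from 22 to 23 Mb had 30 such pairs at T48 against 41 at T0, and chromosome 17 from 7 to 8 Mb had 34 against 26. Pairs of 20 or more were not split by segment.

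**Figure D1:**
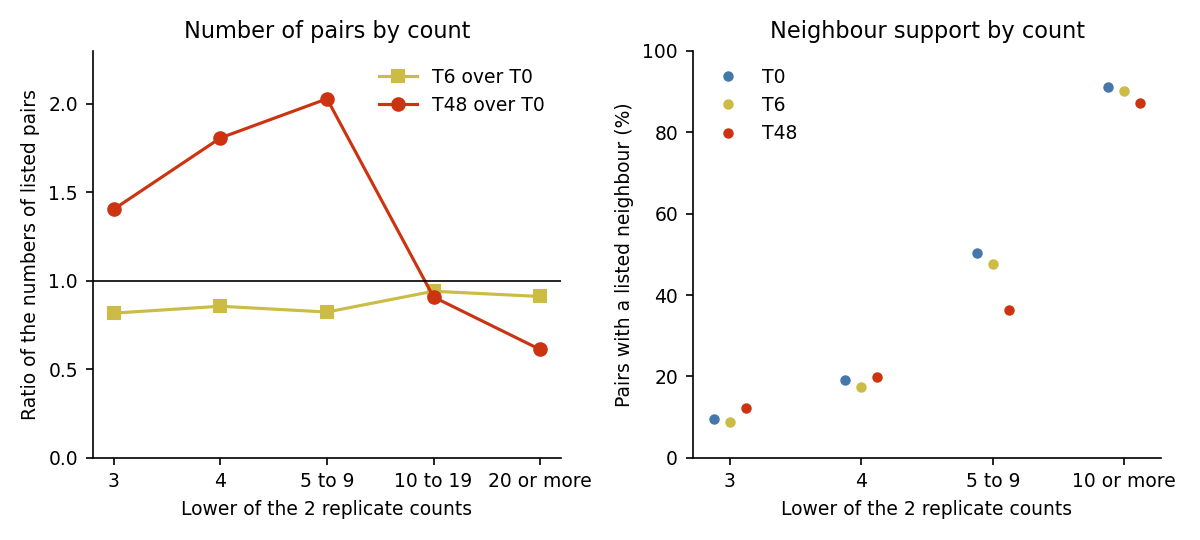
Left, the ratio of the numbers of listed 1 to 2 Mb pairs (T6 over T0 and T48 over T0) by the lower of the 2 replicate counts of a pair; the horizontal line marks a ratio of 1. Right, the percentage of pairs with at least 1 other listed pair within 1 bin at both anchors, with 1 list per time point and no replicate error. The T48 ratio peaks at 2.03 for counts of 5 to 9 and lies below 1 from a count of 10 upwards, and neighbour support climbs with the count at each time point.

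Single pairs of this length were seldom listed at more than 1 time point, as was the case for long pairs in general. Those listed at all 3 time points were 1.36% of the 1 to 2 Mb pairs, 1.96% of those of 500 kb to 1 Mb, 4.36% of those of 2 to 10 Mb and 15.2% of all autosomal pairs. Of the 108347 pairs, 30416 were listed at T0 alone, 24715 at T6 alone and 47673 at T48 alone, and 1471 at all 3 time points. T48 and T0 shared 3048 pairs, which were 5.87% of the T48 pairs and 8.77% of the T0 pairs. With both anchors allowed to differ by up to 5 bins (25 kb), 35.0% of the T48 pairs had a match at T0 and 42.6% of the T0 pairs had one at T48. Listing again depended on the count. Of the 454 T0 pairs with at least 10 in both replicates, 431 (94.9%) were listed at T6 and 407 (89.6%) at T48. Of the 27037 T0 pairs with a lower count of 3, 3.88% were listed at T6 and 5.09% at T48. Between replicates, log2 counts of the listed pairs correlated with Pearson r values of 0.45, 0.47 and 0.38 at T0, T6 and T48 over pairs, which are not independent and mostly sit at the lowest count.

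The contacts lay on every autosome, and each of the 19 listed more of them at T48 than at T0. The ratio of T48 over T0 ranged from 1.23 on chromosome 4 to 1.62 on chromosome 19. Each of the 19 listed fewer at T6 than at T0, from 0.745 times as many on chromosome 6 to 0.882 times on chromosome 13. Density was taken as listed pairs per 1000000 possible pairs of this length between bins that carry any listed pair. Chromosome 14 was the densest, with 1324 at T0, 1100 at T6 and 1753 at T48. Chromosome 1 was the sparsest, with 425 at T0, 328 at T6 and 622 at T48. Along the chromosomes there was no strong lean to an end. With each chromosome cut into 5 stretches of 20% of its length, no stretch held more than 20.9% of the T48 pairs or 21.5% of the T0 pairs. The ratio of T48 over T0 was between 1.44 in the fourth stretch and 1.54 in the first and second.

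**Figure D2:**
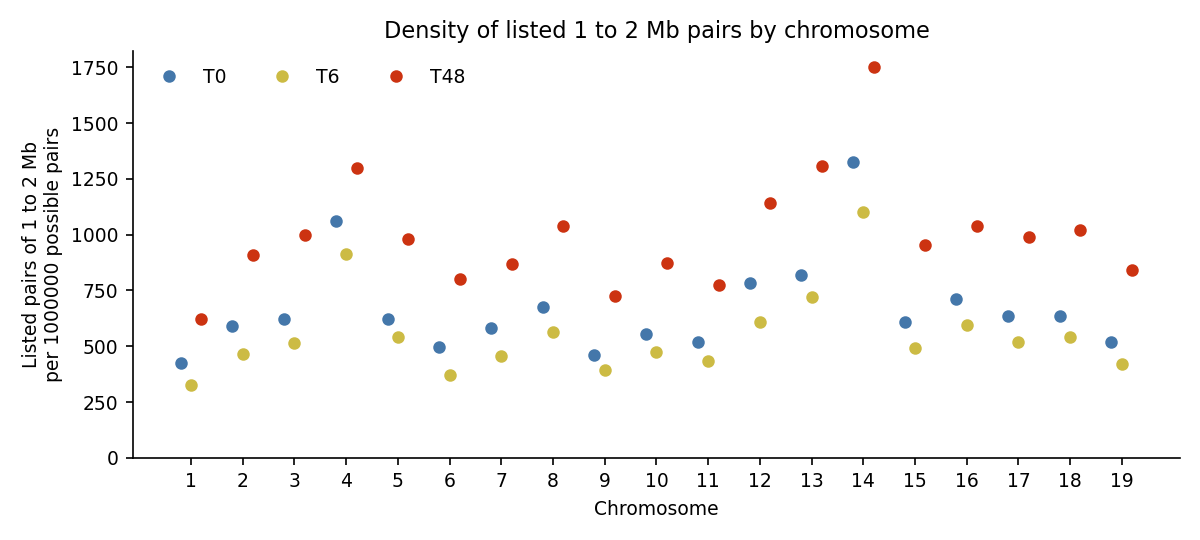
Listed 1 to 2 Mb pairs per 1000000 possible pairs of that length on each autosome (chromosome on the horizontal axis) at T0, T6 and T48; each point is the list of 1 time point, with no replicate error. On all 19 autosomes the T48 point is the highest and the T6 point the lowest, and chromosome 14 stands above the others at each time point.

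The low ratio of chromosome 4 lay in 2 adjoining megabases. Pairs with their midpoint from 145 to 147 Mb numbered 1121, 1109 and 761 at T0, T6 and T48, and the rest of the chromosome listed 1.49 times as many at T48 as at T0. The segment held 11273 and 18049 counts in the T0 libraries, 11927 and 17477 in those of T6, and 6747 and 9737 in those of T48. It was far denser in reads than other places, with 8.87 and 12.8 counts per listed pair at T48 and 10.1 and 16.1 at T0, against 4.18 and 3.95 at T48 and 4.17 and 3.93 at T0 over all other 1 to 2 Mb pairs. Its replicates differed from each other more than the pooled counts of the other 1 to 2 Mb pairs did. In raw counts, replicate 2 held 1.44 times the count of replicate 1 at T48 and 1.601 times at T0, against 0.946 times at T48 and 0.942 times at T0 over the other 1 to 2 Mb pairs. Scaled to the listed count, the other pairs differed between replicates too. Those pairs held 0.295% and 0.467% of the autosomal listed count in T0 replicates 1 and 2, and 0.518% and 0.719% in those of T48. Counts of its shortest pairs moved in the same direction. For pairs under 20 kb listed at all 3 time points, the log2 ratio of T48 over T0 from 146 to 147 Mb was -0.28 in replicate 1 and -0.93 in replicate 2, and from 145 to 146 Mb it was -0.36 and -0.33. Over 2421 windows, 90% of such ratios lay between -0.16 and 0.12 in replicate 1 and between -0.12 and 0.11 in replicate 2. The part of these local coverage changes in the fall of the segment was not tested.

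The strongest single contacts came largely from this segment. The pair of highest summed count joined chr4:145150001-145155000 and chr4:146895001-146900000 over 1745 kb, with 484 and 657 counts in the T0 libraries, 589 and 505 in those of T6, and 53 and 449 in those of T48. The T48 replicates stood over 4-fold apart, with replicate 1 far below every other library and replicate 2 close to them. The second strongest joined chr14:42075001-42080000 and chr14:43120001-43125000 over 1045 kb, with 54 and 704 counts at T0, 60 and 604 counts at T6, and 92 and 687 counts at T48. Here replicate 2 was the high library at every time point. A pair on chromosome 17, between chr17:7200001-7205000 and chr17:8320001-8325000, showed the same split, with 19 and 236 counts at T0, 15 and 355 counts at T6, and 4 and 231 counts at T48. Such pairs were few: counts of the replicates lay over 4-fold apart in 341 pairs at T0, 327 at T6 and 310 at T48. Among pairs with at least 10 in both replicates, the 5 richest 1 Mb windows held 68.1% at T0, 69.7% at T6 and 56.6% at T48.

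Each pair was then placed in the 1 Mb window that holds its midpoint, to find where the gain lay. Of 2348 windows with a 1 to 2 Mb pair at T0 or T48, 1789 (76.2%) held more at T48, 384 held fewer and 175 held equal numbers. At T6, 724 windows held more than at T0 and 1311 held fewer. The median window held 6 pairs at T0, 6 at T6 and 10 at T48. Windows above T0 gained 19035 pairs and those below lost 1857, a net gain of 17178. The gain was spread over many windows, and the most affected held a modest part of it. The 10 windows with the largest gain made up 4.31% of the summed gain, the top 23 windows 8.57%, and the top 235 windows 45.9%. Those 235 windows already held 26.6% of the T0 pairs. At T48, 112 windows with any autosomal pair held no 1 to 2 Mb pair, against 237 at T0.

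At the scale of 1 Mb windows, the places that were rich in 1 to 2 Mb contacts stayed largely the same. The Spearman correlation of numbers per window, over 2421 windows, was 0.90 for T6 and T0, 0.90 for T48 and T0, and 0.89 for T48 and T6. Windows share depth and mappability, so these values are descriptions. The richest windows that together held 50% of the pairs numbered 305, 317 and 335 at T0, T6 and T48. Ordered by their number at T6, a list that enters neither side of the ratio of T48 over T0, windows poor in such pairs had the larger ratio. It was 2.04 over the 271 windows with none at T6, 1.81 with 1 to 4, 1.66 with 5 to 9, 1.56 with 10 to 19, 1.49 with 20 to 49 and 1.22 with 50 or more. The windows with 50 or more include those of the chromosome 4 segment, which listed fewer at T48. Windows with 20 to 49 pairs at T6 gave the largest piece of the net gain, 41.2%, and also held 14583 of the 34751 T0 pairs. At T0 the windows rich in 1 to 2 Mb pairs were also rich in pairs of 500 kb to 1 Mb (Spearman 0.71) and poor in pairs of 20 to 100 kb (Spearman -0.59). The log2 ratio of T48 over T0 in this class followed that of 500 kb to 1 Mb only weakly (Spearman 0.22 over 1565 windows), and that of counts under 20 kb hardly at all (0.01 in replicate 1).

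**Figure D3:**
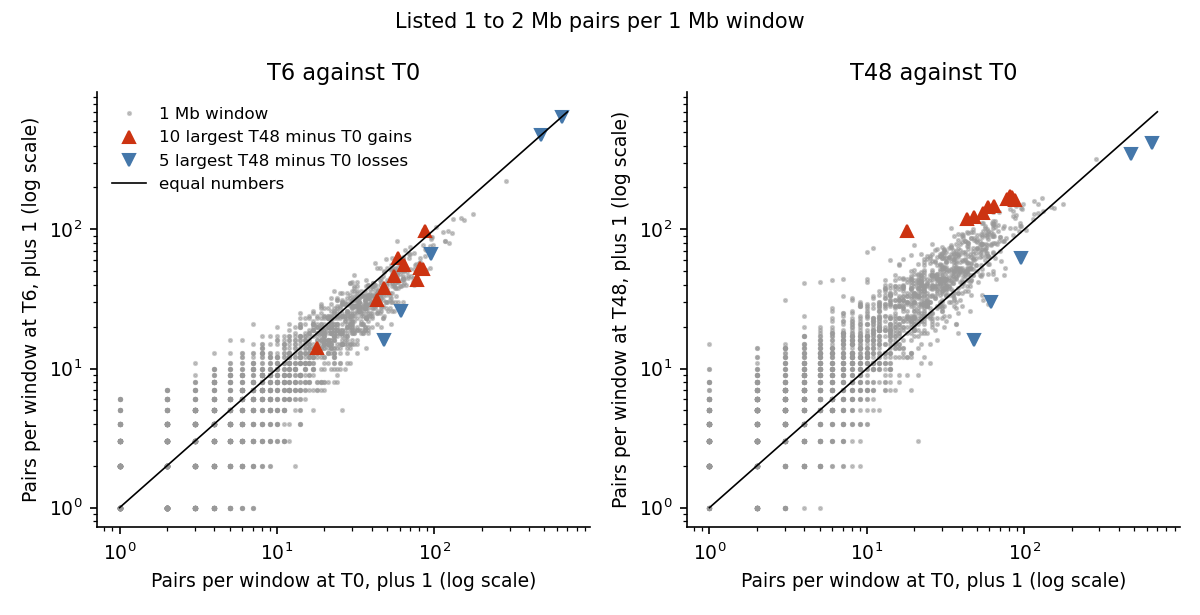
Listed 1 to 2 Mb pairs per 1 Mb window, plus 1, at T6 (left) and T48 (right) against T0, on log axes; each grey point is a window, the line marks equal numbers, and triangles mark the 10 windows with the largest gain at T48 and the 5 with the largest loss. At T48 most windows lie above the line, while at T6 more lie below it than above; the 2 loss windows at the far right are those of chromosome 4.

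The 10 windows with the largest gain lay on 8 chromosomes, and 3 of them on chromosome 2. They were chosen for this difference, so their values are a description. The window of chromosome 18 from 31 to 32 Mb listed 80 pairs at T0, 52 at T6 and 174 at T48. Their counts summed to 820 and 674 counts in the T48 libraries against 341 and 292 in the T0 libraries. On chromosome 2, the window from 9 to 10 Mb listed 77, 42 and 164 pairs at T0, T6 and T48, with 731 and 668 counts at T48 against 321 and 284 at T0. In both windows the raw counts of each T48 library were above those of each T0 library, and the T6 libraries were below T0. An unlisted pair adds no count to either replicate, so this order follows the numbers of listed pairs.

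Near the far end of chromosome 2, the window from 169 to 170 Mb had the largest relative gain of the 10. It listed 17 pairs at T0, 13 at T6 and 97 at T48, a ratio of T48 over T0 of 5.71. The counts were 399 and 375 in the T48 libraries against 60 and 62 in the T0 libraries. In the same window, pairs of 500 kb to 1 Mb numbered 258 at T48 against 202 at T0, and pairs of 20 to 100 kb numbered 137 at T48 against 193 at T0. The window from 171 to 172 Mb, which lies 1 window apart from it, listed 42, 30 and 118 pairs at T0, T6 and T48.

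The window of chromosome 1 from 76 to 77 Mb listed 83 pairs at T0, 51 at T6 and 169 at T48. Of its T48 pairs, 58 ended on a single 5 kb bin, chr1:77515001-77520000. No other window of the 10 had more than 21 T48 pairs on a single bin. The other gain windows were chromosome 15 from 62 to 63 Mb (144 pairs at T48 against 58 at T0), chromosome 12 from 9 to 10 Mb (147 against 63), chromosome 11 from 7 to 8 Mb (131 against 54), chromosome 13 from 5 to 6 Mb (162 against 86) and chromosome 5 from 69 to 70 Mb (122 against 47). On chromosomes 13 and 15 these windows also listed more at T6 than at T0, with 96 and 61 pairs.

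The other values of the gain windows are given beside those of all autosomes. In each of the 10, pairs of 500 kb to 1 Mb were also more numerous at T48, by 1.08 to 1.88 times, against 1.19 times over all autosomes. Pairs of 20 to 100 kb were fewer at T48 in 9 of the 10, and 1.06 times as many in the window of chromosome 13, against 0.818 times over all autosomes. Mean counts per listed pair were between 3.52 and 4.91 in the T48 libraries, against 4.25 and 4.08 over all 1 to 2 Mb pairs. In 7 of the 10, no 1 to 2 Mb pair reached 10 in both replicates at T48. The log2 ratio of T48 over T0 of their shortest pairs was between -0.09 and 0.11 in each replicate, apart from 0.23 in replicate 2 of the chromosome 1 window. Between 18.1% and 61.5% of their T48 pairs had a listed neighbour, against 16.0% of all 1 to 2 Mb pairs at T48, and the share was above that at T0 in each of the 10. The windows were chosen for their gain in listed pairs, and more listed pairs in a window leave more room for neighbours. The part of this choice in the neighbour shares was not tested.

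The 5 windows with the largest loss began with the 2 of chromosome 4, which listed 645 and 476 pairs at T0, 636 and 473 pairs at T6, and 414 and 347 pairs at T48. On chromosome 8 from 82 to 83 Mb the numbers were 94 at T0, 66 at T6 and 61 at T48. On chromosome 19 from 45 to 46 Mb they were 60, 25 and 29, and on chromosome 15 from 61 to 62 Mb they were 47, 15 and 15. The last 3 were thus already low at 6 h, unlike chromosome 4. The chromosome 15 loss window adjoins the gain window from 62 to 63 Mb, and none of its pairs had a listed neighbour at T48 or T0. In the chromosome 19 window the shortest pairs also had lower counts at T48, with log2 ratios of -0.25 and -0.20.

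Neighbour support was the share of pairs with at least 1 other listed pair within 1 bin at both anchors. Among the 1 to 2 Mb pairs it was 14.4% at T0, 13.5% at T6 and 16.0% at T48. Listing was also fuller at T48, with 0.0656%, 0.0541% and 0.0980% of possible pairs at T0, T6 and T48, and the share of the support that this density accounts for was not tested. For comparison, support was 30.6% at T48 and 28.6% at T0 from 500 kb to 1 Mb, and 13.6% at T48 and 20.7% at T0 from 2 to 10 Mb. Support went with the count. At T0 it was 9.60% at a lower count of 3, 19.1% at 4, 50.3% at 5 to 9 and 91.2% at 10 or more. At T48 it was 12.2%, 19.8%, 36.4% and 87.3% in the same classes. There is 1 list per time point, and a neighbour counts for both pairs, so these shares have no error estimate. When only pairs with at least 5 counts in both replicates were kept, and neighbours were sought among them, the direction turned, with 26.3% at T48 and 41.2% at T0. Of the T48 pairs not listed at T0, 12.7% had a neighbour, and of those also listed at T0, 68.3% had one.

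Adjoining pairs, linked when both anchors lay within 2 bins of each other, are called patches here. Patches of at least 5 pairs numbered 295, 223 and 527 at T0, T6 and T48. Outside the chromosome 4 segment there were 247 at T0, 173 at T6 and 489 at T48. With that segment included, patches of at least 5 pairs held 9.44% of the pairs at T0, 8.69% at T6 and 11.4% at T48. Of all pairs, 75.9% at T48 and 78.5% at T0 were linked to no other.

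The largest T48 patch outside that segment joined chr13:89795001-89935000 and chr13:90970001-91050000 over 1155 kb. The area it spans listed 43 pairs at T0, 26 at T6 and 88 at T48. Summed counts were 204 and 156 in the T0 libraries, 128 and 101 in those of T6, and 389 and 372 in those of T48. Per 1000000 listed autosomal counts, T48 stood 2.201 and 2.40 times above T0 in replicates 1 and 2. A patch between chr19:35015001-35110000 and chr19:36105001-36185000 listed 25 pairs at T0, 13 at T6 and 54 at T48, with 304 and 255 counts at T48 against 123 and 101 at T0. A patch between chr9:25460001-25560000 and chr9:26535001-26625000 listed 32, 35 and 66 pairs at T0, T6 and T48, with 359 and 299 counts at T48 against 173 and 119 at T0. A patch between chr7:79525001-79575000 and chr7:80530001-80630000 listed 33, 30 and 60, with 474 and 293 counts at T48 against 210 and 147 at T0. In these 4 patches both T48 libraries were above both T0 libraries. They were chosen as the largest at T48, and an unlisted pair adds no count to either replicate. The order of the counts thus follows the numbers of listed pairs and is no separate support from the replicates.

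Patches that were among the largest at T0 or T6 differed among themselves. The patch between chr2:63305001-63335000 and chr2:64710001-64795000 listed 27, 29 and 38 pairs at T0, T6 and T48. Its counts were 210 and 180 at T48 against 145 and 115 at T0, which again goes with the number of listed pairs. The patch on chromosome 8 between 82165001 and 82255000 at one anchor and 83210001 and 83265000 at the other was the largest at T0 outside the chromosome 4 segment. It listed 81 pairs at T0, 55 at T6 and 54 at T48, and its counts were 364 and 242 at T48 against 618 and 403 at T0. All 81 pairs lay in the chromosome 8 loss window, which listed 94 at T0. The patch between chr1:175195001-175240000 and chr1:176215001-176285000 listed 40, 41 and 37 pairs at T0, T6 and T48, with 848 and 589 counts at T0, 820 and 551 counts at T6, and 778 and 566 counts at T48. A patch between chr17:7160001-7220000 and chr17:8300001-8370000 listed 58, 51 and 61 pairs. Its replicate 2 counts were 3.10 times those of replicate 1 at T0 and 2.04 times at T48, with 1040 and 2121 counts at T48 against 720 and 2232 at T0, so the 2 replicates moved in opposite directions.

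**Figure D4:**
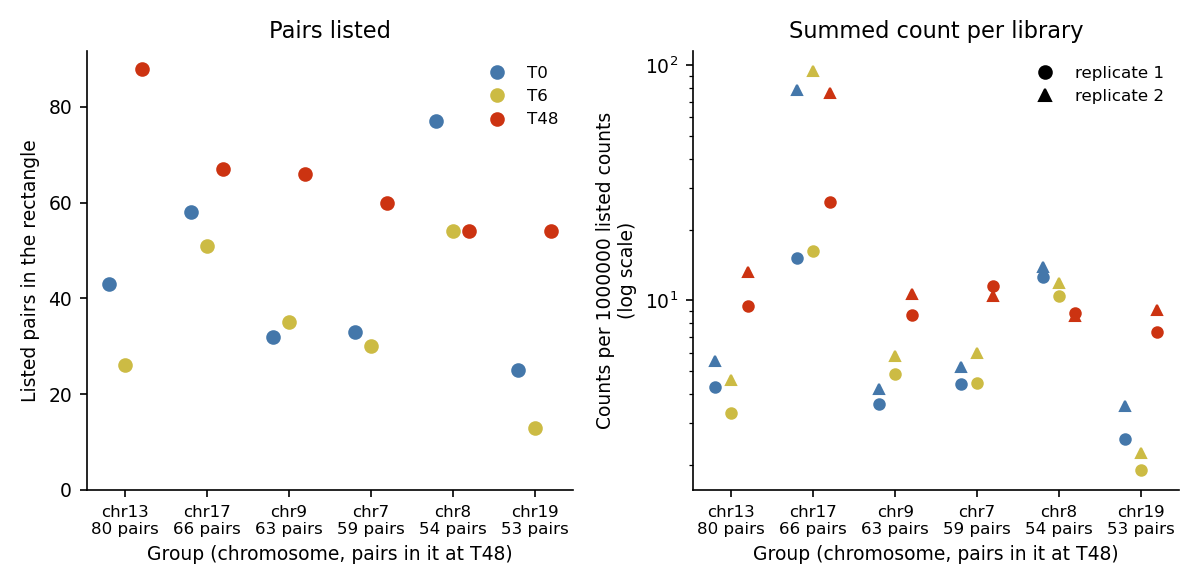
The 6 largest patches of adjoining 1 to 2 Mb pairs at T48 outside chromosome 4 from 145 to 147 Mb, named by chromosome and size. Left, the pairs listed at T0, T6 and T48 within the area the patch spans; right, their summed count per library, per 1000000 listed autosomal counts on a log scale, with circles for replicate 1 and triangles for replicate 2. The patches of chromosomes 13, 9, 7 and 19 are highest at T48 in both replicates, that of chromosome 8 is lowest at T48, and the replicates of the chromosome 17 patch lie far apart.

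Most anchors took part in a single contact of this length. The degree of a 5 kb bin is the number of 1 to 2 Mb pairs that end on it. Pairs ended on 45128 bins at T0, 39172 at T6 and 63479 at T48, which were 12.6%, 10.9% and 17.7% of the 358176 autosomal bins with any listed pair. The mean degree was 1.54 at T0, 1.46 at T6 and 1.64 at T48, and 71.3% of the anchors at T0, 74.4% at T6 and 67.4% at T48 had a degree of 1. Bins with at least 5 pairs numbered 1151, 785 and 2185 at T0, T6 and T48, which was 3.44% of the anchors at T48 and 2.55% at T0. Among pairs with at least 5 counts in both replicates that direction turned, with 2.41% at T48 and 4.49% at T0. At the far end the order turned, with 47 bins of at least 20 pairs at T0, 38 at T6 and 30 at T48. Anchors in the richest 1% held 7.50% of the pair ends at T0 and at T6, and 6.90% at T48, so the added pairs fell mostly on bins of low and middle degree. Unlike the numbers per 1 Mb window, the degree of single bins was weakly or not tied between time points. Over 9607 bins the Spearman correlation was 0.17 for T6 and T0, -0.05 for T48 and T0, and -0.03 for T48 and T6. These bins were kept by a minimum degree, which bears on the values. Degree in this class was only weakly tied to degree in pairs under 1 Mb (Spearman 0.10 at T0 and 0.08 at T48). The median number of pairs under 1 Mb was 12 for T48 anchors of at least 10 pairs and 9 for those of a single pair.

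**Figure D5:**
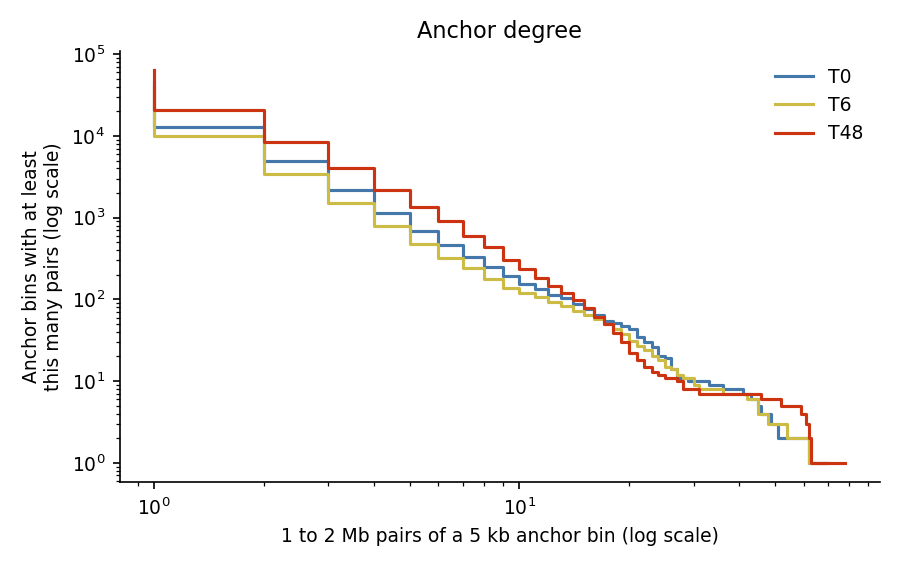
Number of 5 kb anchor bins with at least a given number of 1 to 2 Mb pairs (degree), at T0, T6 and T48, on log axes. The T48 line is the highest at low and middle degrees, and near a degree of 20 it falls below the T0 line, with 30 bins at T48 against 47 at T0.

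A few bins, called hubs here, had many partners. The richest at T48 was chr1:42770001-42775000, with 24 pairs at T0, 28 at T6 and 78 at T48. All of its partners lay at lower positions, at a median distance of 1458 kb. Its counts were 526 and 396 in the T48 libraries against 132 and 103 in the T0 libraries, while its pairs under 1 Mb numbered 139, 138 and 156 at T0, T6 and T48. The bin chr1:77515001-77520000 had 26, 20 and 63 pairs at T0, T6 and T48, again with all T48 partners at lower positions, and 334 and 301 counts at T48 against 175 and 96 at T0. Both bins thus gained 1 to 2 Mb contacts on 1 side.

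The bin chr6:106785001-106790000 differed from these. It had 1 pair at T0, 1 at T6 and 22 at T48, all 22 towards higher positions, and its pairs under 1 Mb numbered 29, 26 and 123 at T0, T6 and T48. Its 1 to 2 Mb counts were 138 and 104 in the T48 libraries, against 3 and 8 in the T0 libraries and 3 and 3 in the T6 libraries. Other large gains were at chr4:18910001-18915000, with 31 pairs at T48 against 12 at T0, and at chr7:38135001-38140000, with 20 at T48 against 3 at T0. The bin chr1:26740001-26745000 was a hub throughout, with 46, 36 and 59 pairs at T0, T6 and T48, on both sides, and over 200 shorter pairs at each time point (258, 249 and 268).

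Hubs of the T0 list that were poorer at T48 included chr13:23490001-23495000, with 45 pairs at T0, 30 at T6 and 17 at T48, and 108, 100 and 29 shorter pairs. Its counts were 64 and 98 in the T48 libraries against 349 and 198 in the T0 libraries. In the chromosome 4 segment, chr4:146880001-146885000 had 51, 48 and 20 pairs, whereas chr4:145145001-145150000 had 69, 69 and 61 and chr4:145035001-145040000 had 62 at every time point. On chromosome 17, chr17:8175001-8180000 had 36, 30 and 28 pairs.

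Contact strength could be tested for the pairs listed at all 3 time points, in a fit to the counts of every such pair in the table with edgeR's quasi-likelihood test and Benjamini-Hochberg adjustment at 0.05. Of the 1471 pairs of 1 to 2 Mb, 437 (29.7%) lay in the chromosome 4 segment and 810 passed the filter on low counts. None of the 810 passed the test for T48 over T0, T6 over T0 or T48 over T6, and the percentage called among all 496203 tested pairs was 0 in each. At an unadjusted p under 0.05 there were 72 for T48 over T0 (8.89%, against 5.52% of all tested pairs), 33 for T6 over T0 (4.07%, against 3.17%) and 95 for T48 over T6 (11.7%, against 5.06%). Without the filter, the median log2 ratio of T48 over T0 over all 1471 was -0.03, against 0.00 over all pairs. It was -0.16 over the 810. Leaving out 1 library at a time, with the filter redone, gave medians from -0.71 (841 pairs, without T0 replicate 1) to 0.45 (1145 pairs, without T0 replicate 2). Without T48 replicate 1 it was 0.26 (813 pairs). The median thus has no settled sign when a T0 or T48 library is left out, which leaves unlike replicates in the 2 groups compared. Leaving out a T6 library gave -0.15 (839 pairs, without replicate 1) and -0.07 (1116 pairs, without replicate 2). With all 6 libraries and the replicate number added as a block, it was -0.19 over the 810. What sets its range was not tested.

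The 5 pairs with the lowest p for T48 over T0 included 3 from the chromosome 4 segment. The first joined chr4:145195001-145200000 and chr4:146940001-146945000, with 61 and 34 counts in the T0 libraries, 63 and 54 counts in those of T6, and 15 and 11 counts in those of T48. Its log2 ratio of T48 over T0 was -1.74 (SE 0.30, edgeR adjusted p 0.455), and the T48 libraries were below all 4 others. A pair of chromosome 8, between chr8:28460001-28465000 and chr8:29470001-29475000, had 37 and 22 counts at T0, 6 and 14 counts at T6, and 7 and 3 counts at T48, with a log2 ratio of T48 over T0 of -2.42 (SE 0.55, edgeR adjusted p 0.708). One pair had a higher count at T48. It joined chr11:7115001-7120000 and chr11:8145001-8150000 over 1030 kb, in the gain window of chromosome 11, with 5 and 4 counts at T0, 5 and 4 counts at T6, and 14 and 11 counts at T48, and a log2 ratio of T48 over T0 of 1.56 (SE 0.36, edgeR adjusted p 0.723). In these 3 pairs the T48 and T0 counts did not overlap, but they were picked for a low p and none passed the adjusted threshold.

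Counts of the same pairs were also summed per 1 Mb window and distance class. The 1471 pairs lay in 245 windows, of which 156 passed the filter. None passed the test in any of the 3 comparisons, and the percentage called among all 8252 tested sums was 0 in each. With the replicate number added as a block, 12 were called for T48 over T0 (7.69%, against 8.52% of all sums). For T48 over T6, 11 were called (7.05%, against 4.12%). The labels do not say whether equal replicate numbers share an origin. Without the block, the lowest p belonged to chromosome 8 from 28 to 29 Mb. There, 3 pairs held 46 and 30 counts at T48 against 98 and 56 at T0 (log2 -0.93, SE 0.12, edgeR adjusted p 0.302). The next was chromosome 6 from 51 to 52 Mb, where 10 pairs held 113 and 69 counts at T48 against 61 and 41 at T0 (log2 0.89, SE 0.15, edgeR adjusted p 0.302). Of the 10 gain windows, 4 held no pair listed at all 3 time points. The one with the most was chromosome 11 from 7 to 8 Mb, with 14 such pairs and 124 and 97 counts at T48 against 80 and 57 at T0 (log2 0.77, SE 0.18, edgeR adjusted p 0.334). The gain of the 10 windows thus lay mostly in pairs missing from at least 1 of the 3 lists, for which this test has no counts. When every pair listed at any time point entered and unlisted pairs were counted as 0, 740 of 2035 windows passed the threshold for T48 over T0 (695 higher), against 33.9% of all 13830 sums. There were 180 for T6 over T0 (109 higher), against 8.32%, and 612 for T48 over T6 (554 higher), against 29.6%. A 0 falls on both replicates together in the deposited table, so these p-values are too small. In the comparisons of T48 the direction goes with the longer T48 list. For T6 over T0, the T6 list of 28681 pairs was shorter than the T0 list of 34751, and 0.977 times as long when scaled to the autosomal lists. The fit scales each library, and the class held 0.329% and 0.581% of the autosomal listed count at T6 against 0.318% and 0.531% at T0. What set the direction for T6 over T0 was not tested. These p-values are no test of contact strength.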

How the data were processed

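Each library's time point and replicate number were read from its title. Bowtie2, CASAVA 1.8.2 and build mm9 are named in the submitters' processing notes. The restriction enzyme, the interaction caller and its threshold are not given in the sources used here. Per the file headers, the authors deposited raw counts of read pairs per pair of 5 kb bins and library for interactions replicated at a time point; a count of 0 falls on both replicates together and was read as not listed. Members, lists and comparisons were chosen with earlier results of these data known. Named were the 10 windows with the largest gain and 5 with the largest loss, the 5 richest anchors per time point and 5 with the largest gain (1 per 500 kb), the 5 strongest pairs and the 5 of lowest p; patches were added after seeing the data. Fits used edgeR 4.0.16 (TMM, filterByExpr, quasi-likelihood F test, all 6 libraries in 1 fit) in R 4.3.3, tested on simulated data first, with DESeq2 1.42.0, other scaling, no filter, a replicate block and leave-one-out as alternatives. Lists were handled with pandas 2.3.3 in Python 3.11.15. No mm9 annotation was used, so gene lists were not looked up.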

Additional observations from a re-analysis of the deposited data

Results flagged for a closer look

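Pairs of 1 to 2 Mb on chromosome X, which the comparisons leave out, numbered 3827, 3098 and 5291 at T0, T6 and T48, a ratio of T48 over T0 of 1.38. They held 1.08% and 1.44% of the chromosome's listed count in the T48 libraries against 0.715% and 1.06% in the T0 libraries, with the lower T48 value just above the higher T0 value.

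Of the 15 named windows, 7 moved in opposite directions at 6 h and 48 h within both replicate numbers, in counts per 1000000 listed autosomal counts (CPM). These differences were not tested, and the windows were chosen for T48 minus T0. An unlisted pair adds no count to either replicate, so the replicates do not move independently. Higher at T48 and lower at T6 than at T0 were chromosome 18 from 31 to 32 Mb (T48 over T6 ratio 3.07), chromosome 2 from 9 to 10 Mb (3.69), from 169 to 170 Mb (7.197) and from 171 to 172 Mb (3.88), and chromosome 1 from 76 to 77 Mb (2.97). In the first of these the values were 7.16 and 10.3 CPM at T0, 5.54 and 8.75 CPM at T6, and 19.9 and 24.0 CPM at T48. Lower at T48 and higher at T6 were chromosome 4 from 146 to 147 Mb (T48 over T6 ratio 0.433) and from 145 to 146 Mb (0.495), with 111 and 271 CPM at T0, 141 and 353 CPM at T6, and 79.2 and 165 CPM at T48 from 145 to 146 Mb.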

How the results depend on the processing

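The number of listed pairs kept its direction in every alternative run. T48 over T0 was 1.803 with at least 5 counts in both replicates, 1.55 without the 1% of anchors of highest degree, 1.66 for pairs with a neighbour, 1.46 and 1.60 below and above 1.5 Mb, 1.57 scaled to list length and 1.52 without chromosome 4 from 145 to 147 Mb (chosen after seeing the data). T6 over T0 was 0.844, 0.772 with a neighbour, 0.810 and 0.878 by distance, and 0.977 scaled; T48 over T6 was 2.14, 1.89 without hubs, 2.14 with a neighbour, 1.61 scaled and 1.86 without the segment. Windows with more pairs at T48 were 86.5% by both anchors, 67.4% at 500 kb and 87.3% at 2 Mb. With at least 5 counts in both replicates, the T48 minus T0 difference in anchors of at least 5 pairs turned to -2.08 points from 0.892, and that in neighbour support to -14.9 from 1.56; the cause was not tested. The anchor difference was 3.45 in bins of 25 kb, and the support difference 2.86 without hubs, 2.54 within 2 bins and 2.90 without the segment. Share differences turned to -0.0161 (T48 minus T0) and -0.0266 (T48 minus T6) points in pairs listed at all 3 time points. Leaving out 1 library at a time, chosen after seeing the data, gave T48 minus T0 share differences of 0.110 to 0.329 points, T48 minus T6 of 0.0629 to 0.315, and T6 minus T0 of -0.0960 (without T6 replicate 2) to 0.156, with -0.0762 without T0 replicate 1.

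Same-numbered replicates share only a number in the labels; log2 ratios of replicate 2 over replicate 1 correlated between time points at 0.55 to 0.65 over the 1471 pairs. With the number as a replicate block, 0 single pairs and 12 windows (4 higher, 8 lower, of 156) were called for T48 over T0, against 8.52% of all sums. They include chromosome 4 from 145 to 146 Mb (edgeR adjusted p 0.0104) and from 146 to 147 Mb (0.0115), chromosome 8 from 28 to 29 Mb (0.0188), chromosome 6 from 51 to 52 Mb (0.0202) and chromosome 11 from 7 to 8 Mb (0.0178). The block called 11 (2 higher, 9 lower) for T48 over T6, against 4.12%. Counting unlisted pairs as 0 called 740, 180 and 612 windows for T48 over T0, T6 over T0 and T48 over T6, which is no test of contact strength. Leaving out any library called 0 pairs and 0 windows. The median log2 ratio was -0.71 without T0 replicate 1, 0.45 without T0 replicate 2 and 0.26 without T48 replicate 1. DESeq2 called 0 of these pairs and windows, against 0.0638% of all pairs and 2.19% of all sums for T48 over T0, and 0.0925% and 0.771% for T48 over T6. The median count of 3 limits what single pairs can show.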
